A study of Mus musculus with 13 samples.

Results

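The replication-dependent histone genes encode the linker histone H1 and the core histones H2A, H2B, H3 and H4 that package newly copied DNA. They were taken as every row of the count table whose gene identifier carries a symbol beginning with Hist1h, Hist2h, Hist3h or Hist4h in the GENCODE M21 annotation of the mouse genome GRCm38. The table held 70 such genes among 54532 rows, and 55 of them reached a mean of 1 CPM (reads counted on the gene, scaled to 1000000 counts in the library) over the 3 total RNA libraries used here. These 55 comprised 5 H1, 10 H2A, 16 H2B, 11 H3 and 13 H4 genes, and the 14248 rows of the table that passed the same minimum served as the background. Of the 15 genes below it, 10 were H2A genes, 3 were H2B genes, 1 was an H1 gene and 1 was an H3 gene. The last genes inside the minimum were Hist1h2af at 1.11 CPM and Hist1h2ae at 1.01 CPM, and the first outside were Hist1h2ah at 0.762 CPM and Hist1h2ag at 0.558 CPM.

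RNA came from Yumm1.7, a mouse melanoma cell line, and every condition had 1 library. Total RNA was sequenced after removal of ribosomal RNA, from cells given DMSO (the vehicle), the ADAR1 inhibitor ADAR1i-124 at 10 μM for 12 h, or 5-AZA-CdR, an inhibitor of DNA methylation, at 1 μM for 72 h. RNA of cells under DMSO, ADAR1i-124, 5-AZA-CdR or 5-AZA-CdR + ADAR1i-124 was also precipitated with J2, an antibody to double-stranded RNA, and with Z22, an antibody to left-handed Z-form nucleic acid, which gave 4 libraries each. A single IgG precipitate served as antibody control, and the labels do not state the treatment of its cells. In the combination, per the study's text, 5-AZA-CdR came first, for 72 h, and ADAR1i-124 followed for 12 h. The labels give no doses for the precipitated combination libraries, and the study combined 5-AZA-CdR with more than 1 dose of ADAR1i-124. The total RNA library of the combination was not used here. The treatments differed in length, so values under the 2 compounds are given side by side without a test between them.

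Most messenger RNAs end in a poly(A) tail. The messages of these genes end instead just after a short stem-loop, which the stem-loop binding protein Slbp holds through processing, export and translation. The genes lie in clusters, carry almost no introns, and are switched on as cells enter S phase through Npat, a coactivator phosphorylated by cyclin E with Cdk2. When DNA synthesis stops, their messages are degraded within a short time. In bulk RNA, fewer cells in S phase and less histone message per cell cannot be told apart.

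Of the 70 genes, 56 lie in the Hist1 cluster on chromosome 13, 10 in the Hist2 cluster on chromosome 3, 3 in the Hist3 cluster on chromosome 11 and 1, Hist4h4, on chromosome 6. The genome was searched for the histone stem-loop, a pattern of 16 bases, within 260 bases after the stop codon. The pattern opened with GG, 3 bases of C or T, and T. Its loop was T, then C or T, then T and any base. It closed with A, 3 bases of A or G, and CC, so stems could vary only within these limits. It was found in 65 of the 67 genes with an annotated coding sequence, 21 to 58 bases after the stop codon, against 6 of 21871 other coding genes (0.0274%). The stem sorted the histone types. All 52 matching H1, H2A, H2B and H3 genes had the stem GGCTCT paired with AGAGCC, and none of the 13 H4 genes did. Of the H4 genes, 11 had GGCCCT paired with AGGGCC, and the remaining 2, Hist1h4b and Hist1h4j, had GGTCCT paired with AGGACC. The stem-loops of 4 genes described below are shown as read from GRCm38, with the paired stem in capitals and the loop in lower case.
Hist1h1b, chr13:21779837-21779852, minus strand: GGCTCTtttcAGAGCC
Hist2h2bb, chr3:96270171-96270186, plus strand: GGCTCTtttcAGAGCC
Hist1h4d, chr13:23581950-23581965, plus strand: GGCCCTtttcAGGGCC
Hist1h4b, chr13:23757366-23757381, plus strand: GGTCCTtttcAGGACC
The annotation does not always stop there. Of the 55 genes above the minimum, 21 had exons that run 200 bases or more past the stem-loop, as in Hist1h4d, where 770 exon bases lie beyond it. Reads on such stretches count for the gene.

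Promoters separated H4 from the other types as well. RefSeq promoters of GRCm38.p6, from 250 bases before to 50 after the start, matched 62 of the 70 genes and were searched on both strands for CCAAT, for TATAAA and for the octamer ATTTGCAT, none of which contains another. CCAAT stood in all 50 promoters of H1, H2A, H2B and H3 genes and in 3 of 12 H4 promoters, against 37.4% of 32817 promoters in all. TATAAA stood in 35 of the 62 (56.5%, against 13.6% of all), and the octamer in 7 of 18 H2A and 6 of 16 H2B promoters but in no H1, H3 or H4 promoter (1.74% of all). Neighbouring H2A and H2B genes that point away from each other share part of this window. The 250 bases before the start are shown for an H2B gene with all 3 motifs and for an H4 gene without CCAAT, with the matches in capitals.
Hist1h2bb, chr13:23746484-23746733, plus strand: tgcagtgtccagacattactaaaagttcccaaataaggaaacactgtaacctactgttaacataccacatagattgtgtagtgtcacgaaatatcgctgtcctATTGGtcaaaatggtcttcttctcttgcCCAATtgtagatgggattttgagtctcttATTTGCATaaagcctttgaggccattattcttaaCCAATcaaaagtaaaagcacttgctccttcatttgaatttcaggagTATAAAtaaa
Hist1h4k, chr13:21750554-21750803, minus strand: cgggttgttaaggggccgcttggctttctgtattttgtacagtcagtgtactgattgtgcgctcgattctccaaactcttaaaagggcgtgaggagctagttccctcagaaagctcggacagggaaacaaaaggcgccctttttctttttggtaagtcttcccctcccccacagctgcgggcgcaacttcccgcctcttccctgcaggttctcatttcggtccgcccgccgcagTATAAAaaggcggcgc

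The 12 libraries held between 8167960 and 34571822 counts, so that 3 counts, the smallest number taken as detected, came to between 0.0868 and 0.367 CPM. Values are CPM of the library's own total, and differences are log2 of CPM + 0.5, a scale on which weakly counted genes appear to change less than they do. Intervals of a sum or a ratio are exact 95% intervals that cover counting error only, for reads without molecular identifiers. Those of a median are 95% binomial intervals over the genes and cover the spread between genes, some of which share sequence. No difference between 2 single libraries has a replicate check. The Z22 DMSO library stood apart: the median row lay 0.73 lower there than in IgG on the log2 scale. DNA replication and mitosis genes also set libraries apart. The 12 mitosis genes summed to 2919 CPM in total RNA with DMSO but to 646 CPM in J2 with DMSO, 359.9 CPM in total RNA with 5-AZA-CdR and 269 CPM in Z22 with the combination. Of 7 melanocyte markers, Mitf alone averaged over 1 CPM in total RNA, and Sox10, Pmel, Tyr, Tyrp1, Dct and Mlana were at or near 0. Among 6 markers of blood, endothelial and skin cells only Cd68 did, and their sum was 8.7 CPM in total RNA with DMSO, 19.9 CPM with ADAR1i-124 and 78.2 CPM with 5-AZA-CdR. In the precipitates it ranged from 6.95 CPM in J2 with ADAR1i-124 to 60 CPM in J2 with DMSO, and the part of this in the J2 comparisons was not tested.

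**Figure D1:**
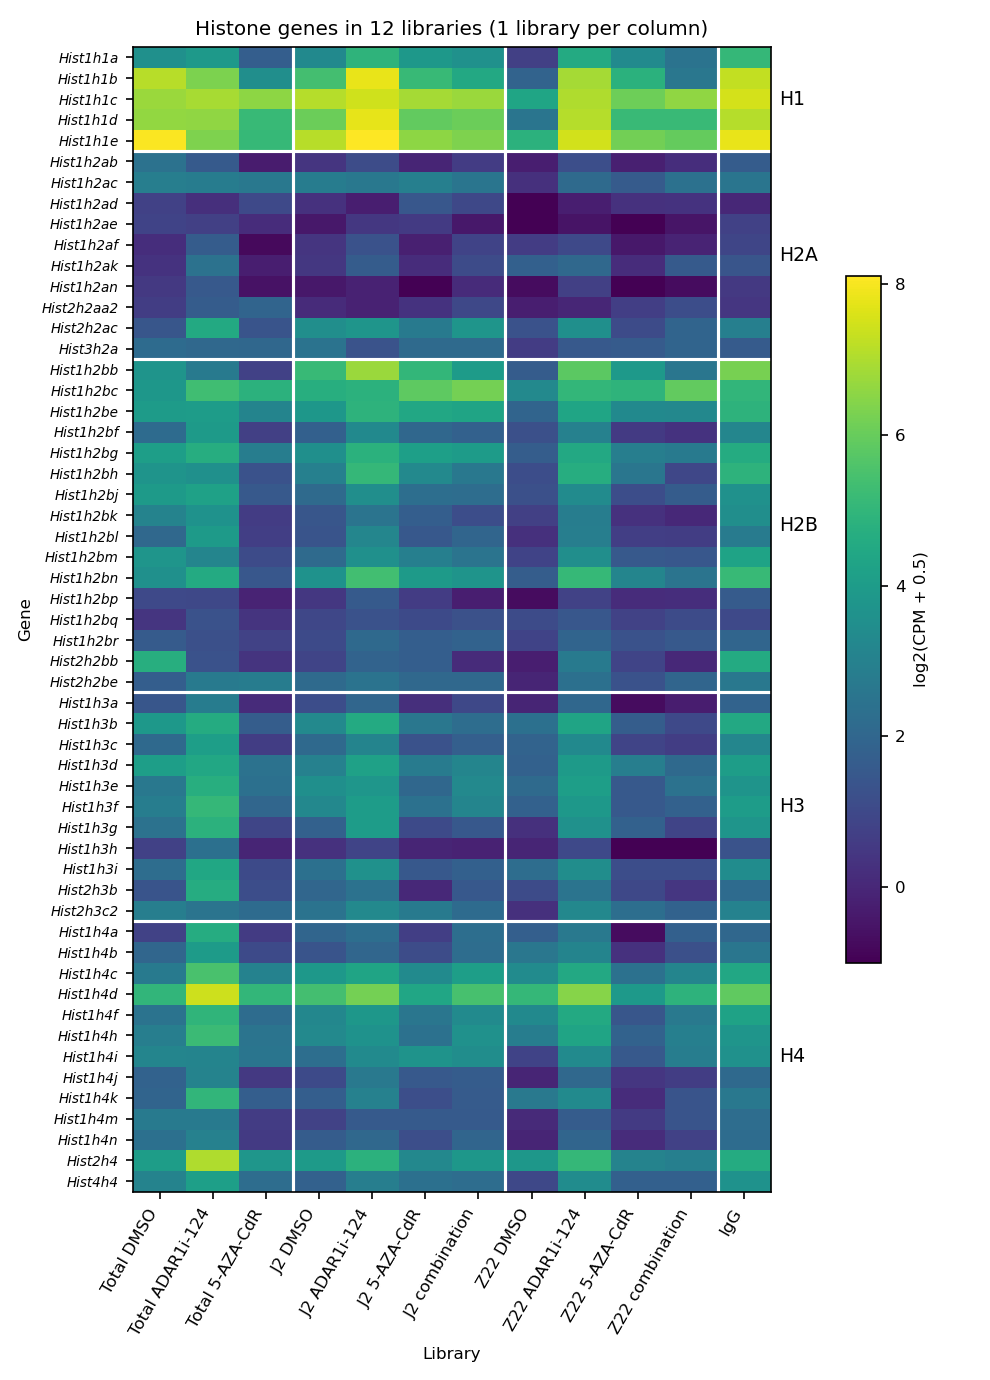
Level of the 55 histone genes above the minimum (rows, grouped by histone type) in the 12 libraries (columns, 1 library per condition), coloured by log2(CPM + 0.5). The H4 block is brightest in total RNA with ADAR1i-124, where the 13 H4 genes sum to 531.0 CPM, and the Z22 DMSO column is dark for H1 and H2B.

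In total RNA the 55 genes summed to 982 CPM with DMSO (95% interval 967 to 997), 1385 CPM with ADAR1i-124 (1368 to 1403) and 366 CPM with 5-AZA-CdR (360 to 372). The types did not move together under ADAR1i-124. H4 genes went from 104 to 531.0 CPM and H3 genes from 68.8 to 212 CPM, while H1 genes went from 625 to 389 CPM. The H1 difference rested largely on Hist1h1e, which went from 267 to 81.8 CPM, and the other 4 H1 genes went from 359 to 307 CPM. H1 genes took 63.7% of the histone counts with DMSO and 28.1% with ADAR1i-124, and H4 genes took 10.6% and 38.3%. These are shares of counts and are not corrected for gene length.

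The first comparison sets total RNA of cells given ADAR1i-124 for 12 h against that of cells given DMSO. Of the 55 genes, 26 were at least 2-fold higher with ADAR1i-124 than with DMSO, against 7.74% of all rows tested, and 2 were at least 2-fold lower, against 8.6% of all rows. The median gene lay 0.97 higher (0.26 to 1.49) on the log2 scale, and the median of all rows lay 0.09 lower. The type medians were 2.33 for H4 (0.62 to 2.96), 1.98 for H3 (0.35 to 2.42), 0.46 for H2A (-0.50 to 2.09) and 0.41 for H2B (-0.41 to 1.02). These intervals overlap. The median of the H1 genes, too few for an interval, was -0.05. Among the 26 higher genes were 10 H4, 8 H3, 4 H2A and 4 H2B genes. Of these, 3 H2A genes and 1 H3 gene (Hist1h2af, Hist1h2ak, Hist1h2an and Hist1h3h, named after their values were seen) reached the minimum of 1 CPM only through the ADAR1i-124 library, so their count is set in part by the minimum. With the minimum taken over DMSO and 5-AZA-CdR, chosen after seeing the data, 22 of 48 histone genes were at least 2-fold higher, against 6.9% of rows, and 1 of them was an H2A gene.

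H4 genes had the highest median of the types, and the largest single difference was that of an H4 gene. Hist1h4a counted 1.23 CPM with DMSO, 24.3 with ADAR1i-124 and 0.983 with 5-AZA-CdR, and the log2 difference to DMSO under ADAR1i-124 was 3.84. Hist2h4, the H4 gene of the chromosome 3 cluster, counted 16.3, 130.4 and 13.2 CPM in the same order, a difference of 2.96 (interval of the log2 ratio 2.82 to 3.19). Hist1h4d counted 31.6, 171.0 and 32.1 CPM, a difference of 2.42 (2.30 to 2.57). For all 3 genes the ADAR1i-124 library stood far above DMSO, and the 5-AZA-CdR library lay close to DMSO. Hist1h4c counted 6.05, 44.95 and 7.69 CPM (2.79) and Hist1h4k, whose promoter is shown above, 3.29, 31.1 and 2.83 CPM (3.06). The pattern did not hold for every H4 gene: Hist1h4i counted 8.35 and 8.12 CPM, Hist1h4m 6.23 and 6.07 CPM, and Hist1h4n 4.70 and 7.49 CPM with DMSO and ADAR1i-124. These 3 genes, named after their values were seen, carry the GGCCCT stem, as do most of the H4 genes that were higher. Hist1h4m and Hist1h4n share 88.1% and 80.7% of their 100-base windows with other genes of the set, so their counts are uncertain.

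Hist1h4k shares 64.3% of its windows in the same way. Among H3 genes, Hist2h3b, with 77.1% of its windows shared, went from 2.06 to 24.6 CPM (3.29, interval of the ratio 3.08 to 4.12) and Hist1h3f from 6.82 to 32.9 CPM (2.19). Hist1h3b, with 56.6% shared, and Hist1h3d, with 13.9 to 23.7 CPM and 16.8 to 21.6 CPM, stayed under the 2-fold line. Hist2h2ac led the H2A genes, from 2.23 to 22.8 CPM (3.09, 2.87 to 3.87). Hist1h2ac and Hist3h2a, which count among the H2A genes with most reads, differed by -0.09 and -0.08 on the log2 scale, with intervals of the ratio that cover 0. Of the leading H2B genes, Hist1h2bc went from 13.8 to 39.4 CPM (1.49), Hist1h2bg from 16.9 to 25.1 CPM (0.56), and Hist1h2be from 15.6 to 16.1 CPM (0.04).

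Of the 55 genes, 17 had a negative difference, 2 of them past 2-fold. Hist2h2bb, an H2B gene, fell by 3.41 on the log2 scale, from 25.4 to 1.93 CPM (432 to 34 counts). It lies 610 bases downstream of Hist2h3b on the same strand, so the largest fall and the largest H3 rise came from neighbours. Both are overlapped over their whole length by an antisense row, Gm20628, which held 1.29 CPM with DMSO and 0.454 CPM with ADAR1i-124. Whether the authors counted by strand is not stated, so reads of the 3 rows may not be fully separable, and the part of this in the result was not tested. The linker histone gene Hist1h1e fell by 1.70, from 267 to 81.8 CPM, and shares 496 exon bases with Hist1h2be on the same strand. Hist1h1b (141 to 78.6 CPM) and Hist1h2bb (12.5 to 6.19 CPM) were lower by 0.84 and 0.96, inside the 2-fold line on this scale, and Hist1h1c was nearly level at 107 and 119 CPM.

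**Figure D2:**
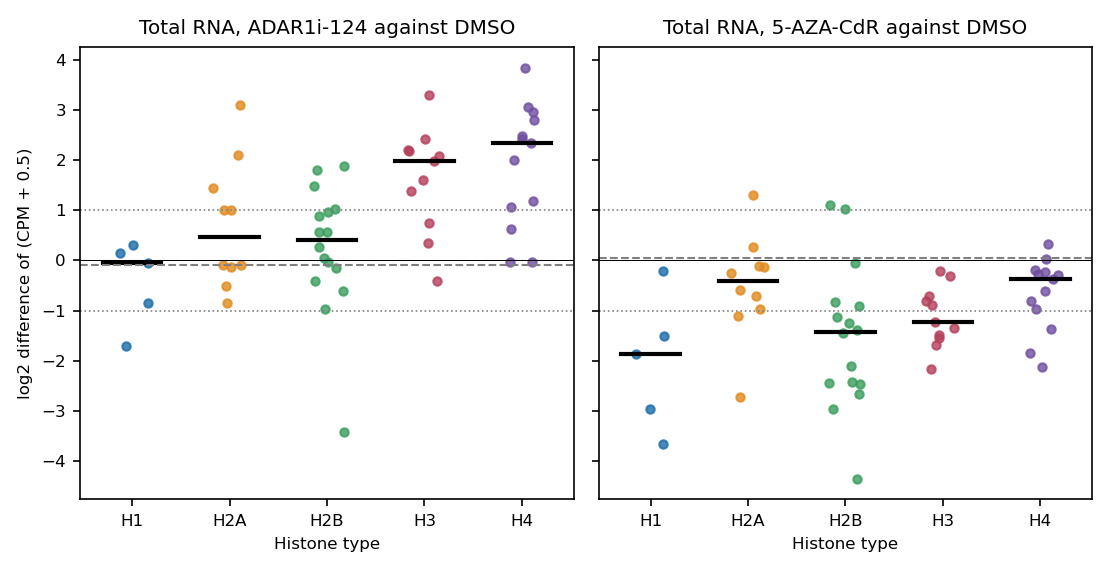
log2 difference of CPM + 0.5 from DMSO in total RNA for each of the 55 genes (points), by histone type, with ADAR1i-124 on the left and 5-AZA-CdR on the right. Black bars are type medians, the dashed line is the median of all 14248 rows, and dotted lines mark 2-fold. With ADAR1i-124 the H3 and H4 medians lie at 1.98 and 2.33, and with 5-AZA-CdR the H1, H2B and H3 medians lie below -1.

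Base composition moved with this comparison. Among rows that are not histone genes, the median difference with ADAR1i-124 was -0.20 where the transcript has up to 40% GC, 0.25 at 55 to 60% GC and 0.53 at 60 to 65% GC. The histone genes ranged from 39.8% to 69.0% GC with a median of 56.2%, against 48.6% for all rows. Within the 55 to 60% band the 13 histone genes had a median of 0.56, and within the 60 to 65% band the 11 histone genes had 1.39. Centred on rows of the same GC band, an alternative chosen after seeing the data, the excess of the histone median over all rows went from 1.06 to 0.52, and that of the H4 genes from 2.42 to 1.96. By length, 375 other rows with 300 to 600 exon bases had a median of -0.15, against 1.44 for the 27 histone genes of that length. At 1000 to 2000 bases the 9 histone genes had 0.35 and other rows -0.13, and above 2000 bases the 8 histone genes had -0.00378 and other rows -0.08. The part of GC content in the result was not tested further.

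**Figure D3:**
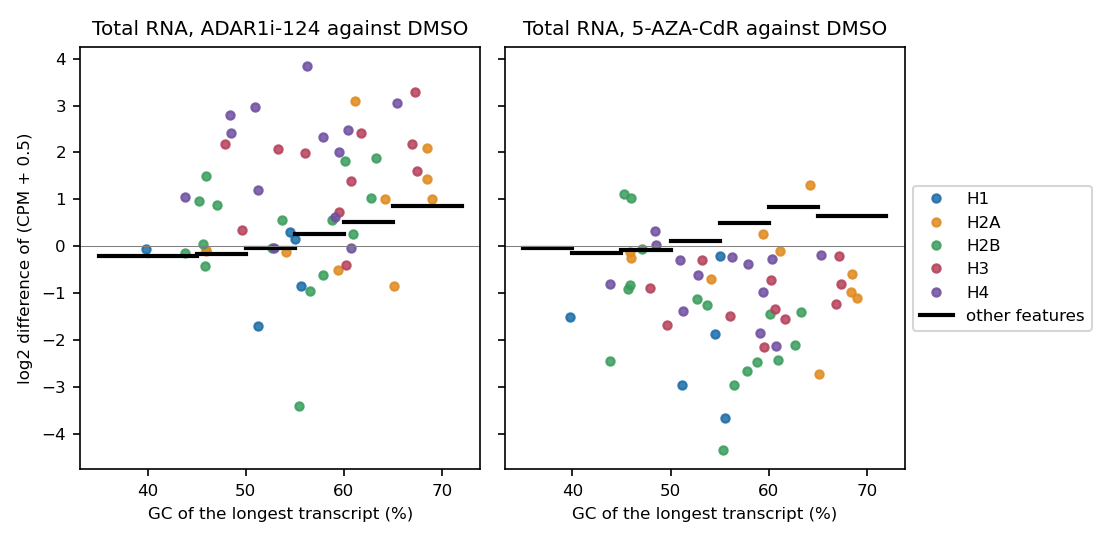
log2 difference of CPM + 0.5 from DMSO in total RNA against the GC content of the longest transcript, for the 55 histone genes (points, coloured by type) and as medians of the other rows in bands of GC (black bars, outermost bands drawn to 35% and 72%). In both comparisons the bars between 60 and 65% GC lie above those up to 50% GC. At 60 to 65% GC the histone median is 1.39 against 0.53 for other rows with ADAR1i-124, and -1.39 against 0.83 with 5-AZA-CdR.

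Lists of related genes are set beside all rows, of which 7.74% were at least 2-fold higher and 8.6% lower with ADAR1i-124. Of 19 genes for the transcription and 3′ processing of histone messages, none passed 2-fold in either direction with ADAR1i-124, and the list median was -0.06. Slbp counted 67.5 and 51.6 CPM and Npat 90.5 and 87.0 CPM with DMSO and ADAR1i-124. Of 36 DNA replication genes of S phase, 2 were at least 2-fold higher and 2 lower, with a median of -0.28, and Pcna, the sliding clamp of DNA polymerase, went from 195 to 151 CPM. Among the 11 replication-independent histone variants, 1 was at least 2-fold higher and 2 were lower, with a median of -0.11. H3f3a, a gene for the variant H3.3, fell by 1.06 (239 to 114 CPM), while H2afx, which marks DNA breaks once phosphorylated, went from 38.2 to 45.7 CPM.

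The second comparison, which shares its DMSO library with the first, sets total RNA of cells given 5-AZA-CdR for 72 h against DMSO. Histone messages were mostly lower. Of the 55 genes, 26 were at least 2-fold lower than with DMSO, against 9% of all rows, and 3 were at least 2-fold higher, against 16.4% of all rows. The median gene fell by 0.97 (interval of the median -1.39 to -0.61) while the median of all rows was 0.05 higher, and 49 of the 55 genes had a negative difference. The type medians were -1.87 for H1, -1.41 for H2B (-2.46 to -0.82), -1.22 for H3 (-1.68 to -0.30), -0.41 for H2A (-1.10 to 0.26) and -0.37 for H4 (-1.37 to -0.19). These intervals overlap as well. The lower genes were 11 H2B, 6 H3, 4 H1, 3 H4 and 2 H2A genes. Among them, Hist1h2bp, named after its value was seen, does not reach the minimum of 1 CPM without the DMSO library. The minimum was also taken over ADAR1i-124 and 5-AZA-CdR, a choice made after seeing the data. There 25 of 53 histone genes were at least 2-fold lower, 10 of them H2B genes, against 8.49% of rows.

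Hist1h1b fell by 3.65 on the log2 scale, from 141 to 10.8 CPM (2399 to 373 counts). Hist1h1e fell by 2.96, from 267 to 33.8 CPM. Hist1h1c, another linker histone gene, did not follow them and stood at 107 CPM with DMSO and 93.4 CPM with 5-AZA-CdR. Hist2h2bb, the gene with the largest fall in both comparisons, fell by 4.34, from 25.4 to 0.781 CPM (432 to 27 counts). Hist1h2bb, whose promoter is shown above, fell by 2.95 (12.5 to 1.19 CPM), Hist1h2bm by 2.66 (12.9 to 1.62 CPM) and Hist1h2bk, with 70.8% of its windows shared, by 2.46 (7.99 to 1.04 CPM). The H3 genes Hist1h3b and Hist1h3d fell by 2.15 and 1.68.

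H4 genes held their level more closely than H1, H2B and H3 genes, and H2A genes had a like median (-0.41 against -0.37). Hist1h4d counted 31.6 CPM with DMSO and 32.1 CPM with 5-AZA-CdR, Hist2h4 16.3 and 13.2 CPM, and Hist1h4c 6.05 and 7.69 CPM (0.32, interval of the ratio 0.01 to 0.69). The H4 exceptions past 2-fold were Hist1h4m, Hist1h4n and Hist1h4j, named after their values were seen, which fell by 2.13, 1.84 and 1.37. With ADAR1i-124 Hist1h4j had gone from 3.17 to 7.89 CPM, past 2-fold upward, and the other two had stayed within 2-fold. The 3 genes past 2-fold upward were Hist1h2bc (13.8 to 28.5 CPM, 1.02), Hist2h2be (2.82 to 6.65 CPM, 1.11) and Hist2h2aa2 (1.06 to 3.36 CPM, 1.31), the last 2 named after their values were seen. Hist2h2be is 1 of the 2 coding genes without a stem-loop match, the other being Hist1h2an. Hist2h2aa2 shares all of its 100-base windows with another gene of the set and is covered by an antisense row, so its count is uncertain.

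Over all types, the fall was larger where the annotation stops near the stem-loop. The 32 genes whose exons end within 200 bases of the stem-loop or before it had a median of -1.36 with 5-AZA-CdR, and 19 of them were at least 2-fold lower. The 21 genes whose exons run 200 bases or more past it had a median of -0.71, and 6 were at least 2-fold lower. Within H2B the medians were -2.42 for 9 genes of the first kind, all past 2-fold, and -0.86 for 6 genes of the second kind. Within H3 they were -1.34 for 7 genes and -0.79 for 4, and within H2A -0.58 for 7 and -0.19 for 2. Within H4 there was no such gap, with -0.37 for 7 genes and -0.45 for 6. Under ADAR1i-124 the corresponding medians over all types were 1.2 and 0.15, with 17 of 32 and 8 of 21 genes at least 2-fold higher, where 7.74% of all rows were higher. Within H4 they were 2.33 for 7 genes and 1.80 for 6 genes. By cluster, with 5-AZA-CdR the 46 genes of the Hist1 cluster had a median of -1.17, with 25 at least 2-fold lower, and the 7 genes of the Hist2 cluster had a median of -0.21, with 1 lower, where 9% of all rows were lower. With ADAR1i-124 the medians of these clusters were 0.81 and 0.998. Within the Hist1 cluster, parts of 18 and 28 genes with a gap between them had medians of -1.29 and -0.97 with 5-AZA-CdR and of 0.75 and 1.06 with ADAR1i-124. Type, cluster and annotated length overlap in these groups, and their parts in the fall were not tested.

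DNA replication and mitosis genes were lower in the same library, where 9% of all rows were at least 2-fold lower and 16.4% higher. With 5-AZA-CdR, 28 of the 36 DNA replication genes of S phase were at least 2-fold lower than with DMSO and none was higher, with a median of -1.67, and all 12 mitosis genes were lower, with a median of -3.04. Tk1, which makes thymidine monophosphate for DNA synthesis, fell by 2.69 (98.6 to 14.9 CPM), Prim1, a primase subunit, by 2.55, and Pcna by 1.57 (195 to 65.5 CPM). Of the 19 histone message factors 4 were lower and none higher: Ccne2, the S phase cyclin E2, fell by 1.67, Nasp, a histone chaperone, by 1.34, and Cdk2 and Casp8ap2 followed. Slbp went from 67.5 to 38.7 CPM and Npat from 90.5 to 72.5 CPM, both under 2-fold. Among the replication-independent variants, H2afz fell by 2.19, Cenpa, the centromere histone, by 1.88 and H2afx by 1.51. By GC content, other rows at 55 to 60% GC had a median of 0.49 and the 13 histone genes of that band -1.84. The GC-centred excess of the histone median was -1.43 against -1.02 without centring, and the part of GC content was not tested further.

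In the precipitates the question is whether histone messages follow total RNA. They did so only in part. With J2, 26 of the 55 genes were at least 2-fold higher with ADAR1i-124 than with DMSO, against 7.02% of all rows, and the median was 0.92 (0.71 to 1.09). Here it was H1 and H2B that led. H1 genes went from 392 to 920 CPM, a log2 ratio of 1.23 (1.18 to 1.28), where in total RNA they had gone from 625 to 389 CPM. Without Hist1h1e these were 253.5 to 644 CPM in J2 and 359 to 307 CPM in total RNA. H2B genes went from 128 to 327 CPM, with 13 of 16 at least 2-fold higher. H4 genes went from 109.7 to 192 CPM and H2A genes from 26.9 to 29.2 CPM.

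Of the 26 genes at least 2-fold higher in total RNA with ADAR1i-124, 10 were at least 2-fold higher in J2 as well, and the 3 with the largest rise in total RNA were not. Hist1h4a counted 3.45 CPM with DMSO and 4.38 CPM with ADAR1i-124 in J2 (log2 difference 0.30, interval of the ratio -0.24 to 0.94). Hist2h3b counted 3.53 and 4.86 CPM (0.41, -0.11 to 1.05) and Hist2h2ac 10.9 and 13.0 CPM (0.24, -0.08 to 0.58). Hist1h4k went from 2.79 to 7.43 CPM in J2 (1.27, 0.84 to 2.01). Hist1h4d was higher in J2 as well, at 41.7 and 73.8 CPM (0.82, 0.67 to 0.98), but by less than in total RNA. Over the 26 genes the median was 2.08 there and 0.83 (0.47 to 1.16) in J2, against 1.07 in J2 for the 27 genes within 2-fold in total RNA. Because the 26 genes were chosen by their total RNA difference, a smaller value in J2 is set in part by that choice. Hist1h1b went the other way in the 2 kinds of RNA, from 40.9 to 224 CPM in J2 and from 141 to 78.6 CPM in total RNA. The DNA replication and mitosis genes also differed between the J2 libraries, with medians of 1.61 and 2.20 for ADAR1i-124 against DMSO. They had medians of -1.59 and -2.13 in J2 DMSO against total RNA DMSO, where all rows had -0.36, so the J2 DMSO library was low in them, and the part of this in the histone values was not tested.

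**Figure D4:**
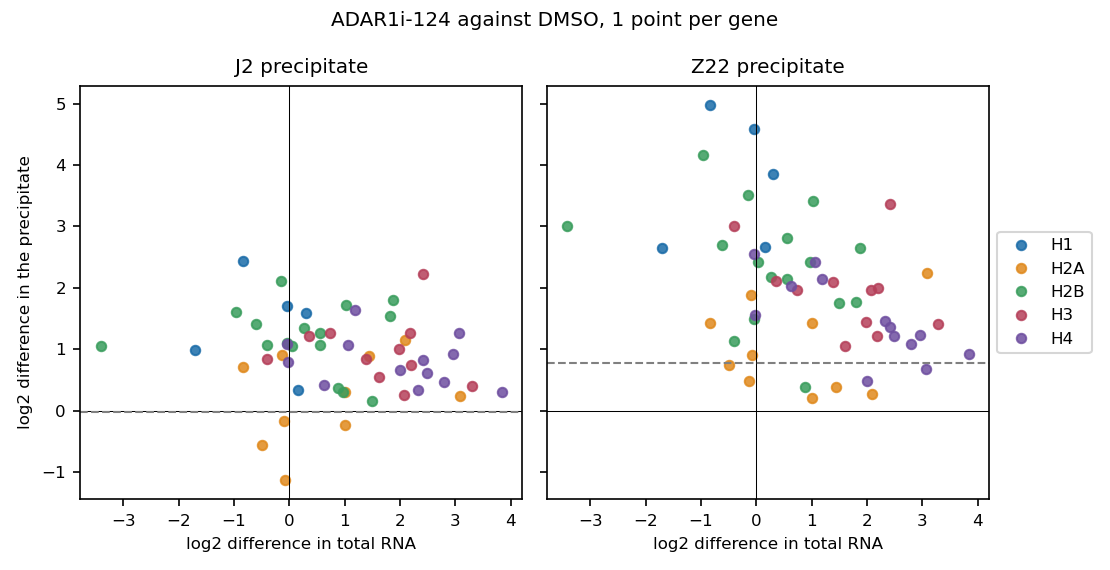
log2 difference of CPM + 0.5 between ADAR1i-124 and DMSO in total RNA (x axis) and in the J2 or Z22 precipitate (y axis), 1 point per gene, coloured by histone type, with the dashed line at the precipitate's median over all rows. H4 genes spread to the right, with a median of 2.33 in total RNA and 0.79 in J2, and H1 genes lie high on the left, with a median of -0.05 in total RNA and 3.86 in Z22.

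With Z22, 45 of the 55 genes were at least 2-fold higher with ADAR1i-124 than with DMSO, but so were 41.3% of all rows, whose median lay 0.78 higher. The histone median was 1.96 (1.43 to 2.18). H1 genes went from 57.9 to 587 CPM and H2B genes from 32.9 to 249 CPM, with type medians of 3.86 and 2.43, whereas H4 genes went from 91.7 to 237 CPM with a median of 1.37. Hist1h1b went from 3.21 to 116 CPM. The replication and mitosis lists had medians of 2.02 and 1.83 in the same comparison.

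Under 5-AZA-CdR the J2 precipitate did not show the fall seen in total RNA, in histone genes or in DNA replication and mitosis genes. The replication and mitosis lists had medians of 0.47 and 0.14 in J2, against -1.67 and -3.04 in total RNA. The J2 DMSO library was low in them, and the part of this in the histone values was not tested. Of the 55 genes, 3 were at least 2-fold higher than in J2 DMSO, against 7.47% of all rows, and 3 were at least 2-fold lower, against 5.71%, with a median of -0.21 (-0.47 to 0.15). The 26 genes at least 2-fold lower in total RNA had a median of 0.03 (-0.47 to 0.33) in J2, and none passed 2-fold there. They were chosen by their fall in total RNA, so the gap to J2 is set in part by that choice. H2B genes went up, from 128 to 185 CPM, and H3 genes down, from 59.5 to 33.9 CPM. In Z22 19 genes were at least 2-fold higher, against 51.7% of all rows, and 10 were at least 2-fold lower, against 3.66%. The histone median less that of all rows was -0.61 there and -0.11 after GC centring. H1 and H4 parted again: H1 genes went from 57.9 to 214 CPM, a median of 2.63, and H4 genes from 91.7 to 42.2 CPM, a median of -0.98. The Z22 DMSO library was also low in replication and mitosis genes, with medians of -2.17 and -2.01 against total RNA DMSO, where all rows had -1.14. The combination libraries had medians of 0.08 (-0.13 to 0.31) in J2 and 0.45 (0.02 to 0.80) in Z22 against their DMSO libraries, where all rows had 0.10 and 0.81.

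**Figure D5:**
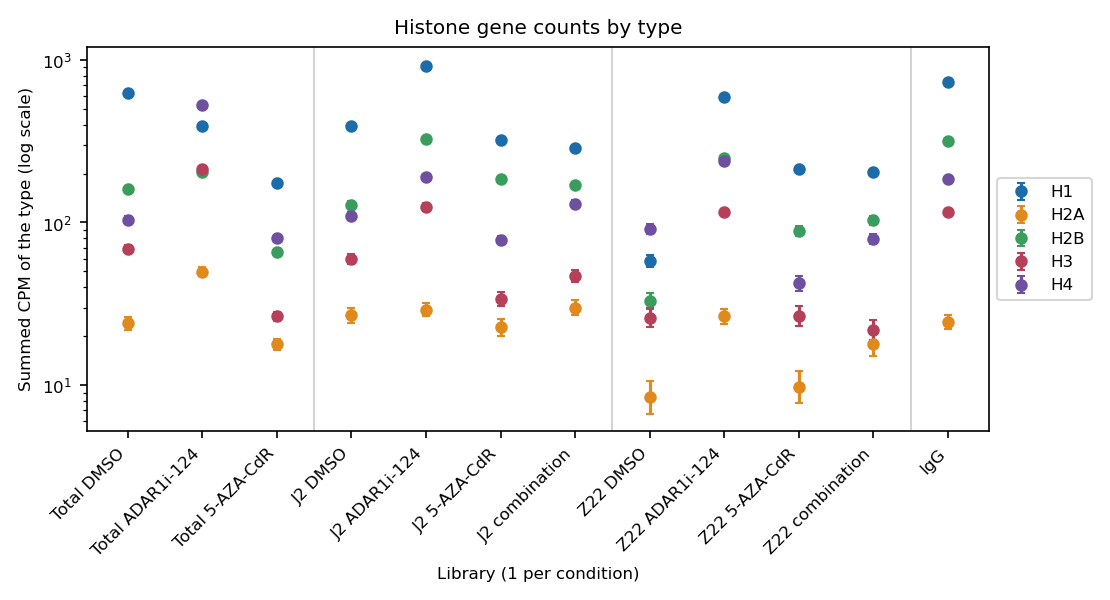
Summed CPM of the histone genes of each type (log axis) in the 12 libraries, 1 library per condition; bars are exact 95% Poisson intervals and cover counting error only. H4 is the top type only in total RNA with ADAR1i-124 (531.0 CPM) and in Z22 with DMSO (91.7 CPM), and H1 is the top type in the other 10 libraries.

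Most histone messages were lower in the J2 and Z22 precipitates of DMSO cells than in the IgG precipitate, whose cells may have had another treatment. In J2 DMSO, 29 of the 55 genes were at least 2-fold lower than in IgG, against 8.51% of all rows, and none was at least 2-fold higher, against 13.1% of all rows, with a median of -1.03 (-1.11 to -0.69). Hist2h2bb fell by 3.69 (22.97 to 1.31 CPM), Hist1h2bm by 2.15 and Hist1h2bk by 2.05. The largest difference upward was that of Hist3h2a, at 5.01 CPM in J2 and 2.54 CPM in IgG (0.85, interval of the ratio 0.37 to 1.59). Hist3h2a shares 708 exon bases with Trim17 on the same strand, which held 0.821 CPM in J2 DMSO and 0.0653 CPM in IgG, and the part of this was not tested. It was followed by those of Hist2h2ac, at 10.9 and 7.05 CPM (0.60, 0.25 to 1.01), and of Hist1h2ac, at 6.65 and 5.29 CPM (0.31, interval of the ratio -0.13 to 0.79). In Z22 DMSO, 43 genes were at least 2-fold lower than in IgG, against 42.1% of all rows, and none was at least 2-fold higher, against 10% of all rows, with a median of -2.16 (-2.40 to -1.40). Hist1h1b fell by 5.38 (154 to 3.21 CPM) and Hist1h2bb by 4.59 (74.8 to 2.64 CPM), and Hist2h2bb went from 352 counts to 3 counts, a log2 ratio of -6.06 with an interval of -8.35 to -4.50. Hist1h4k and Hist1h4b were level, at 5.96 and 5.61 CPM in Z22 and 5.74 and 5.42 CPM in IgG.

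In the histone median, the IgG precipitate lay closest to those of cells given ADAR1i-124 alone. J2 with ADAR1i-124 differed from IgG by a median of 0.06 (-0.13 to 0.19) and Z22 with ADAR1i-124 by -0.12 (-0.24 to 0.04), where J2 with 5-AZA-CdR differed by -1.27 (-1.36 to -1.09) and Z22 with 5-AZA-CdR by -1.87 (-2.11 to -1.68). The combination cells had also received ADAR1i-124, and their precipitates differed from IgG by -0.82 in J2 (-1.06 to -0.47) and -1.46 in Z22 (-1.92 to -1.22). The DNA replication genes behaved alike, summing to 3202 CPM in IgG, 3194 CPM in J2 and 2912 CPM in Z22 with ADAR1i-124, but to 962 CPM in J2 DMSO and 873 CPM in Z22 DMSO. With the treatment of the IgG cells not stated, antibody and treatment cannot be told apart in these comparisons. Against total RNA of the same ADAR1i-124 treatment, J2 held less H4 (192 against 531.0 CPM) and more H1 (920.1 against 389 CPM).

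The antibodies could be set against each other with a test, because each of the 4 treatments has a J2 and a Z22 library. By edgeR's quasi-likelihood test with treatment as a block and Benjamini-Hochberg adjustment over 14248 rows, no histone gene and 0% of all rows passed an adjusted p of 0.05. At an unadjusted p under 0.05, 19 histone genes were lower in Z22 and none was higher, where 9.24% of all rows were lower and 12.3% were higher. DESeq2 with the same block gave an adjusted p to 12590 rows, which left out some histone genes. It called 8 histone genes lower and none higher, against 2.1% of those rows called lower and 5.11% called higher. The smallest adjusted p by edgeR was 0.0914, for Hist1h2bb, with a log2 difference of -1.56 (SE 0.303) and lower values in Z22 in 4 of 4 treatments. Hist1h1b differed by -1.44 (SE 0.354, adjusted p 0.105 by edgeR), also lower in 4 of 4, from -0.31 with 5-AZA-CdR to -3.48 with DMSO. Without the DMSO pair, 4 histone genes passed by edgeR, all lower in Z22, where 1.64% of all rows passed as lower and 4.22% as higher.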

How the data were processed

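Total RNA and RNA precipitated with J2, Z22 or IgG were sequenced from Yumm1.7 cells, 1 library per condition. The precipitated RNA had been digested with RNase I and DNase. The authors mapped reads to GRCm38 (mm10 in the submitters' processing notes) with STAR in snakePipes and deposited raw counts per gene, without normalization. The counting tool, its strand setting and its treatment of reads that map to several genes are not given in the sources used here. Of the 55 histone genes, 18 share at least 50% of their 100-base windows with another gene of the set, and their counts are uncertain.

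From the deposited counts, CPM was computed with the sum of all rows of a library, and rows were kept where the 3 total RNA libraries averaged 1 CPM or more. Identifiers were matched without version to GENCODE M21, which left 37 rows without a symbol. Differences are log2(CPM + 0.5), called at 2-fold. The total RNA library of the combination was left out by the rule that chose the genes and was not analysed here. The interval of a log2 ratio is the Clopper-Pearson interval of its counts without the 0.5, that of a sum is exact Poisson, and that of a median is the binomial interval over genes, all at 95%. Only Z22 against J2 was tested, with edgeR 4.0.16 (quasi-likelihood, TMM, treatment block) and DESeq2 1.42.0 in R 4.3.3, after edgeR had been tested on simulated data. These p-values measure the spread between treatments, not between cultures.

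The members and the gene lists were chosen with earlier results of these data known. Genes named are the 3 of each histone type with the highest mean CPM in total RNA, the 3 with the largest rise and fall (mean of at least 5 CPM) in both total RNA comparisons and in the DMSO precipitates against IgG, at most 4 of each other list, and Slbp, Npat, Pcna and H2afx; others are marked where they appear or illustrate an overlap. Alternatives covered scaling, pseudocount, minimum, members left out, the fold line and GC content.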

Additional observations from a re-analysis of the deposited data

Results flagged for a closer look

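Summed counts of a histone type moved opposite ways in total RNA and in a precipitate under the same treatment in 5 cases. Values are log2 ratios to DMSO less the median of all rows of that comparison, each rests on single libraries, and the difference between them was not tested. With ADAR1i-124, H1 genes stood at -0.60 in total RNA, 1.24 in J2 and 2.56 in Z22. The total RNA value rests largely on Hist1h1e: without it, an alternative chosen after seeing the data, the values were -0.13, 1.36 and 3.0, and the median H1 gene differed by -0.05 where all rows had -0.09. With 5-AZA-CdR, H1 genes stood at -1.89 in total RNA and 0.83 in Z22 (-1.40 and 1.2 without Hist1h1e), and H2B genes at -1.32 in total RNA, 0.48 in J2 and 0.38 in Z22. Without Hist1h2bc, another alternative chosen after seeing the data, the H2B values were -2.01, 0.26 and 0.25, and the median H2B gene in Z22 differed by 0.993 where all rows had 1.05, so the Z22 sign holds for the sum and not for the median. The J2 and Z22 DMSO libraries behind these ratios were low in DNA replication genes (962 and 873 CPM summed, against 3047 CPM in total RNA with DMSO), and the part of this was not tested.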

How the results depend on the processing

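Only Z22 against J2 was fitted with pairs, by treatment, and the precipitates were not tested against total RNA. Without that block edgeR again called 0 histone genes, and 3 rather than 19 were lower at an unadjusted p under 0.05. The labels give no replicate numbers. Values that follow are the histone median less the median of all rows. GC-centred values, chosen after seeing the data, moved beyond the interval for Z22 with ADAR1i-124 (1.18 to 1.48, and 1.41 with rows under 1.5 kb), Z22 with 5-AZA-CdR (-0.61 to -0.11), Z22 DMSO against IgG (-1.43 to -1.81) and J2 and Z22 DMSO against total RNA (-0.06 to -0.25 and -0.61 to -1.15). A pseudocount of 2 CPM gave 0.69 for J2 with ADAR1i-124 (0.93) and -0.70 for J2 DMSO against IgG (-1.05), and one of 0.1 CPM gave -1.76 for Z22 DMSO against IgG. In total RNA with 5-AZA-CdR, 26 of 55 genes (47.3%) were past the 2-fold line downward. Without genes that share most of their sequence, 17 of 37 (45.9%) were, a like share. Of the 26, 12 passed a 4-fold line (1.78% of all rows). The 3 higher ones became 1 with TMM factors or without exons over 1 kb, and 0 with a pseudocount of 2 CPM or a 4-fold line. With ADAR1i-124, 14 of 26 higher genes passed 4-fold (1.78% of all rows). The 2 lower genes became 1 without exons over 1 kb or at 4-fold, 0 without genes that overlap another gene, and 5 or 4 after GC centring over all or short rows. Left-out pairs gave 0 to 4 calls in Z22 against J2, the 4 without the DMSO pair (1.64% of all rows lower, 4.22% higher). DESeq2 gave 8 (2.1% of the rows with an adjusted p lower, 5.11% higher). All of these histone calls were lower in Z22. The cause of these shifts was not tested, except where fewer genes or a higher line were set. Low counts limit the H2A genes most.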
